A study of Mus musculus with 36 samples.

Results

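Bile acid synthesis and transport genes were examined in the liver of mice lacking Mlkl in adipocytes and of their WT littermates. Part of the mice of each genotype received normal chow (NCD), and the rest a high-fat diet (HFD). The genes were the 10 rows of the gene table named Cyp7a1, Cyp7b1, Cyp8b1, Cyp27a1, Nr1h4, Nr0b2, Slc10a1, Abcb11, Baat and Slco1a1, out of 56748 genes. All 10 are protein-coding, and all 10 passed the filter on low values in every comparison. They were chosen by name, with earlier results of these data known.

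RNA was sequenced from liver and visceral white adipose tissue (visWAT) of the same 18 male mice, 1 library per mouse and tissue. In MlklAdi-KO mice the floxed Mlkl alleles were combined with the Adipo-Cre transgene, which is active in mature adipocytes. The littermates called WT had the same floxed alleles but no Cre, and all mice were bred on a C57BL/6J background. Feeding began when the mice were 16 weeks old and lasted 16 weeks, and the mice had free access to food. The livers came from 4 WT NCD mice (165, 180, 182 and 183), 4 MlklAdi-KO NCD mice (166, 179, 197 and 199), 5 WT HFD mice (154, 155, 161, 162 and 164) and 5 MlklAdi-KO HFD mice (151, 152, 153, 156 and 157). Levels are given as FPKM, the fragments on a gene per kilobase of its length, scaled to a library size. Liver libraries held 20875463 to 25530574 reads on genes. Behind the members' liver values stood 158 to 24520 reads.

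Bile acids are made from cholesterol in hepatocytes, joined to taurine, pumped into bile, and taken up again from portal blood. CYP7A1 opens the classical pathway and CYP8B1 directs it to cholic acid, while CYP27A1 and CYP7B1 act in the alternative pathway. BAAT joins bile acids to taurine. The bile acid receptor FXR, encoded by Nr1h4, is known to induce SHP (Nr0b2), which represses Cyp7a1 and Cyp8b1, and the export pump BSEP (Abcb11). NTCP (Slc10a1) and OATP1A1 (Slco1a1) bring bile acids and other organic anions into hepatocytes. In mice, Cyp7b1 and Slco1a1 are known to be higher in male than in female liver.

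Cre acts in adipocytes, so liver Mlkl does not check the genotype, and liver Mlkl spanned 1.62 to 4.19 FPKM over all 18 mice. In visWAT on HFD, Mlkl ranged from 4.58 to 6.28 FPKM in WT and from 2.32 to 2.72 FPKM in MlklAdi-KO mice, without overlap. On NCD it ranged from 2.29 to 5.11 FPKM in WT and from 1.96 to 2.49 FPKM in MlklAdi-KO visWAT. The overlap came from mouse 182, which is labelled WT and whose visWAT held 2.29 FPKM, inside the MlklAdi-KO range, while the other 3 WT NCD mice had 3.91 to 5.11 FPKM. The hepatocyte markers were high in every liver, with Alb between 25146 and 47072 FPKM.

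The liver of mouse 182, labelled WT NCD, also stood apart, and it touches several results. All 10 bile acid genes lay outside the range of the other 3 WT NCD livers. Of 9 hepatocyte markers, 6 were below and 2 above that range. The share of all genes outside it was not counted, here or for the sex-biased genes below. Slco1a1 was 1.47 FPKM in mouse 182 and 117 to 136 FPKM in the others, so that the level in mouse 182 was 1.16% of their mean. Cyp7b1 was 8.29 FPKM there and 89.5 to 127 FPKM in the others, which is 7.83% of their mean. Slc10a1 was at 33.2%, Cyp8b1 at 41.8%, Cyp27a1 at 54.9% and Baat at 59.9% of the mean of the others. Cyp7a1 alone among the 10 was above them, at 32.7 FPKM against 11.9 to 32.1 FPKM.

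In the same liver, 13 of 13 male-biased liver genes were below the other 3 WT NCD livers and 10 of 15 female-biased genes were above them. The steroid hydroxylase gene Cyp2a4 was 267 FPKM against at most 0.626 FPKM, and Cyp2b9 was 112 FPKM against at most 1.87 FPKM. The Y-linked gene Ddx3y was present at 17.0 FPKM, and Xist was at 0.00538 FPKM. The summed level of 8 cholangiocyte markers was 177 FPKM in mouse 182, of which Spp1 made up 147 FPKM, and 29.3 to 45.8 FPKM in the other WT NCD livers. Recruited macrophage markers summed to 124 FPKM against 36.4 to 43.6 FPKM, and stellate cell markers to 32.3 FPKM against 15.3 to 19.7 FPKM. Libraries of WT HFD mouse 155 and MlklAdi-KO NCD mouse 166 held more of the bile duct keratin Krt19, 36.2 and 15.2 FPKM, than the 15 livers outside these 3 mice, at most 0.991 FPKM. They also held the pancreatic enzyme gene Ctrb1 at 51.8 and 30.1 FPKM, against at most 0.139 FPKM in those 15. Where mouse 182 changes the sign or call of a member, or the total count of further pathway genes, values are given with and without it. Counts for single lists are with all mice unless stated.

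**Figure D1:**
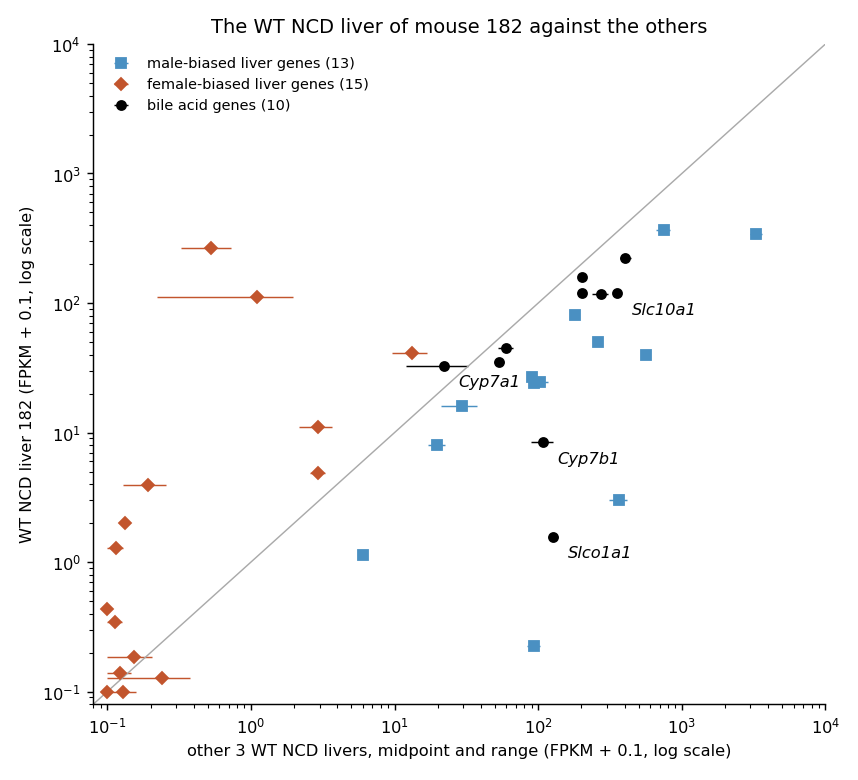
Level of genes in the liver of mouse 182, labelled WT NCD (vertical) against the midpoint and range of the other 3 WT NCD livers (horizontal), both as FPKM + 0.1 on log axes, with a line of equality. All 13 male-biased genes lie below the line, Cyp2a4 and Cyp2b9 are far above it, and Slco1a1 (1.47 FPKM) and Cyp7b1 (8.29 FPKM) lie among the male-biased genes.

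Over the 18 livers, the mean levels ran from Slc10a1 (372 FPKM) and Cyp27a1 (347 FPKM) through Cyp8b1 (241 FPKM), Baat (175 FPKM), Abcb11 (139 FPKM), Slco1a1 (108 FPKM), Cyp7b1 (94.7 FPKM) and Nr1h4 (76.9 FPKM) to Cyp7a1 (40.2 FPKM) and Nr0b2 (33.6 FPKM). Neighbours in this order overlapped in their ranges over mice. Within groups, the coefficient of variation was 5.60% for Nr1h4 and 50.7% for Cyp7a1 in MlklAdi-KO HFD livers. Baat and Cyp27a1 varied by 6.52 to 8.45% within the groups that do not hold mouse 182.

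The windows upstream of 5 members are shown as examples, those of Nr0b2 and Abcb11, which fell with diet in WT, and those of Cyp8b1, Cyp7b1 and Slco1a1, which were low in mouse 182. Each is the 250 bases before the start of the gene's canonical GENCODE transcript in GRCm39, written 5′ to 3′ on the gene's strand, with capitals where a searched motif occurs. The motifs were a spaced form of the FXR inverted repeat (GNNCA and TGNNC with 1 base between them), an LRH-1 motif (CAAGGTCA), an HNF4 motif (CAAAGTCCA), a D-box (TTANNTAA), a STAT5 motif (TTCNNNGAA) and the TATA box (TATAAA), each on both strands.
Nr0b2 (chr4:133280428-133280677, plus strand): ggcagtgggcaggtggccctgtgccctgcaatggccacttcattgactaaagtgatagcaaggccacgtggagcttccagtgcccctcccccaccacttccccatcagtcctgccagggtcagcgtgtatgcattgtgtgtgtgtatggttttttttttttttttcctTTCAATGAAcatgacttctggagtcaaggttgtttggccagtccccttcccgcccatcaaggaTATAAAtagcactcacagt
Abcb11 (chr2:69173316-69173565, minus strand): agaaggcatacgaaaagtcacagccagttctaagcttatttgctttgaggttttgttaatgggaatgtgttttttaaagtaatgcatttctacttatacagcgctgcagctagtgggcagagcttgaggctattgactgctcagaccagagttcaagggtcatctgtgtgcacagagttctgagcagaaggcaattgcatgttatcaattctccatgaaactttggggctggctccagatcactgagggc
Cyp8b1 (chr9:121745372-121745621, minus strand): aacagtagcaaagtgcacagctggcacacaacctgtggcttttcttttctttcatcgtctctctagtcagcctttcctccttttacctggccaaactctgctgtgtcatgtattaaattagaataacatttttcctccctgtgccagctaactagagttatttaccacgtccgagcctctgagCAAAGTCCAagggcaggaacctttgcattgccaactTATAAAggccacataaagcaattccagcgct
Cyp7b1 (chr3:18297741-18297990, minus strand): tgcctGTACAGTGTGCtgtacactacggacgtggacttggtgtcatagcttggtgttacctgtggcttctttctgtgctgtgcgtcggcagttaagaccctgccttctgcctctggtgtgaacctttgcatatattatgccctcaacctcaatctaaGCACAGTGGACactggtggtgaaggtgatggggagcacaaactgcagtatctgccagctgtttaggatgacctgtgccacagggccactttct
Slco1a1 (chr6:141892691-141892940, minus strand): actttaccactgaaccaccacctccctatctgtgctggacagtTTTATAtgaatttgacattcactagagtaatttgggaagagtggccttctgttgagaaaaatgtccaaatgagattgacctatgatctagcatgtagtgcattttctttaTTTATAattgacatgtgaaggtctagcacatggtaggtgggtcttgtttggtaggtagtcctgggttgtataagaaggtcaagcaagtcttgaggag

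Among the 9 members whose windows were searched, the TATA box letters were found in 3 (Cyp8b1, Nr0b2 and Slco1a1), against 11.9% of 21770 windows of protein-coding genes. In Cyp8b1 they start 31 bases before the transcript start, and in Nr0b2 19 bases before it. In Slco1a1 they are on the opposite strand (TTTATA), from 207 and 97 bases before it. The HNF4 letters were found in Baat and Cyp8b1, against 0.372% of all windows. The STAT5 letters were found in Nr0b2 (7.70% of all windows), the FXR repeat letters in Cyp7b1 (6.44%), the D-box in Nr1h4 (5.33%) and the LRH-1 letters in none of the 9 (1.37%). The Abcb11 window holds none of these letters. The 5 windows shown overlap no annotated exon. GENCODE transcript starts can differ from the deposited gene coordinates. The Abcb11 window begins at 69173316, while the deposited gene, on the minus strand, ends at 69172960. For Cyp7b1 these positions are 18297741 and 18297502. The Nr1h4 window ends at 89342761, while the deposited gene, on the minus strand, ends at 89369447. Its D-box thus lies inside the deposited gene and not upstream of it. The Slc10a1 window also lies inside the deposited gene. The windows of Nr1h4 and Slc10a1 overlap 2 annotated exons each, and that of Cyp27a1 overlaps 3. A match is a description of the letters and not a site of binding.

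The effect of diet was asked first, in each genotype by itself. In WT livers on HFD, Cyp7a1 and Nr1h4 rose while Nr0b2 and Abcb11 fell, 4 of 10 members against 25.3% of all genes tested (3374 of 13330, 1755 higher and 1619 lower). The same 4 members had no overlap between diets, against 24.8% of all genes. In MlklAdi-KO livers, Cyp7a1 and Nr1h4 rose and Abcb11 fell, 3 of 10 members against 22.2% of all genes tested (2919 of 13149). These 3 also had no overlap, against 21.5% of all genes. The tests were limma on log2(FPKM + 1) with Benjamini-Hochberg adjustment over all genes tested, and log2 differences are on that scale.

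**Figure D2:**
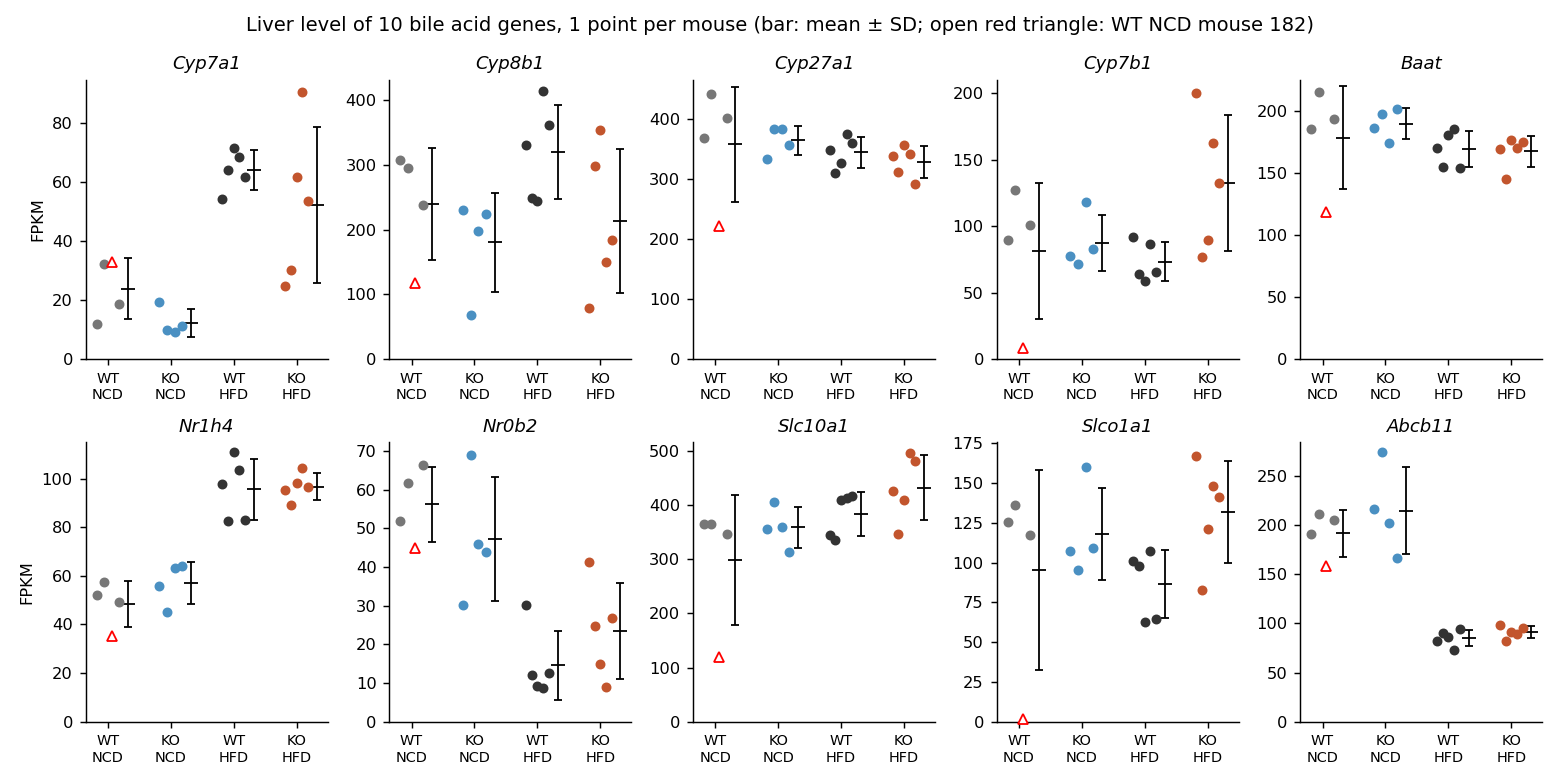
FPKM of the 10 genes in each of the 18 livers (1 point per mouse, bar for the mean and SD of the group, open red triangle for mouse 182). Abcb11 and Nr1h4 separate the diets in both genotypes (Abcb11 at most 97.8 FPKM on HFD and at least 158 FPKM on NCD), and mouse 182 is at 1.47 FPKM for Slco1a1.

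Cyp7a1 (ENSMUSG00000028240, chr4:6265612-6275633 in mm39), the rate-limiting enzyme of the classical pathway, had 11.9, 32.1, 32.7 and 18.5 FPKM in the 4 WT NCD livers and 54.0, 64.0, 71.5, 68.3 and 61.7 FPKM in the 5 WT HFD livers. In MlklAdi-KO mice it had 19.3, 9.71, 9.0 and 11.2 FPKM on NCD and 24.7, 30.3, 61.5, 90.4 and 53.5 FPKM on HFD. Every HFD liver was above every NCD liver of its genotype. The HFD mean was 2.69 times the NCD mean in WT (63.9 ± 6.69 against 23.8 ± 10.3 FPKM, SD, n = 5 and 4) and 4.23 times in MlklAdi-KO mice (52.1 ± 26.4 against 12.3 ± 4.76 FPKM). The log2 difference was 1.49 (SE 0.26, limma adjusted p = 0.00361) in WT and 1.91 (SE 0.37, limma adjusted p = 0.00575) in MlklAdi-KO livers. The exact two-sided permutation p was 0.0159 in either genotype, the smallest that 5 against 4 mice can give. Without mouse 182 the WT difference was 1.67. The HFD livers of MlklAdi-KO mice spanned a wider range than those of WT mice.

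Cyp8b1 (chr9:121743422-121745371), the sterol 12-alpha-hydroxylase, is an intronless gene measured over 1950 bases. It had 308, 295, 117 and 238 FPKM in WT NCD, 231, 67.6, 198 and 224 FPKM in MlklAdi-KO NCD, 331, 249, 245, 415 and 361 FPKM in WT HFD and 79.7, 299, 354, 150 and 184 FPKM in MlklAdi-KO HFD livers. The diets overlapped in both genotypes, and the log2 difference did not pass the test (0.48, SE 0.29, limma adjusted p = 0.256 in WT and 0.21, SE 0.48, limma adjusted p = 0.798 in MlklAdi-KO mice). Within MlklAdi-KO HFD livers the highest value was in mouse 153 and the lowest in mouse 151.

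Cyp27a1 (chr1:74752733-74777051), the mitochondrial sterol 27-hydroxylase, spanned 221 to 441 FPKM in WT NCD, 333 to 384 FPKM in MlklAdi-KO NCD, 310 to 375 FPKM in WT HFD and 292 to 357 FPKM in MlklAdi-KO HFD livers. All groups overlapped. The diet difference was -0.01 (SE 0.18) in WT and -0.15 (SE 0.08) in MlklAdi-KO mice, and neither passed (limma adjusted p = 0.966 and 0.197). Without mouse 182 the WT difference was -0.23 (SE 0.08, limma adjusted p = 0.0598).

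Cyp7b1 (chr3:18126114-18297502), the oxysterol 7-alpha-hydroxylase, had 89.5, 127, 8.29 and 101 FPKM in WT NCD, 77.6, 71.2, 119 and 82.8 FPKM in MlklAdi-KO NCD, 92.0, 64.2, 58.9, 86.4 and 65.4 FPKM in WT HFD and 201, 76.5, 89.6, 163 and 132 FPKM in MlklAdi-KO HFD livers. The value of 8.29 FPKM is that of mouse 182, and 3 of 5 MlklAdi-KO HFD livers were above every other group's mice. The diet difference in WT was 0.35 (SE 0.68, limma adjusted p = 0.755) with mouse 182 and turned to -0.53 (SE 0.17, limma adjusted p = 0.0462) without it. Then 5 of 10 members passed, against 28.5% of all genes tested. On the TPM scale, where every library has the same sum, the WT difference without mouse 182 was -0.46 and missed the threshold (limma adjusted p = 0.0563). In MlklAdi-KO mice the difference was 0.53 (SE 0.28, limma adjusted p = 0.205).

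Baat (chr4:49489422-49506557), the bile acid conjugating enzyme, spanned 119 to 215 FPKM in WT NCD, 174 to 201 FPKM in MlklAdi-KO NCD, 154 to 185 FPKM in WT HFD and 145 to 176 FPKM in MlklAdi-KO HFD livers. The diet difference did not pass the test in WT (-0.05, SE 0.16, limma adjusted p = 0.865) or MlklAdi-KO mice (-0.18, SE 0.08, limma adjusted p = 0.118). Without mouse 182, every WT HFD liver was below every WT NCD liver for Baat and Slco1a1. For Baat the groups all but touched, with 185.0 FPKM in HFD mouse 162 and 185.5 FPKM in NCD mouse 165. With the 4 members named above, of which Cyp7a1 and Nr1h4 lay higher and Nr0b2 and Abcb11 lower, 6 of 10 members then had no overlap, against 33.3% of all genes. The diet difference of Baat in WT was then -0.23 (SE 0.08, limma adjusted p = 0.0592). With mouse 182 left out, edgeR and DESeq2 on the reads behind the FPKM each called 8 of 10 members in WT, with Cyp7b1, Cyp27a1, Baat and Slco1a1 added as lower on HFD. Of all genes, edgeR then called 30.4% and DESeq2 31.7%. By limma without mouse 182 it was 5 of 10 members, against 28.5% of all genes. On the TPM scale limma then called 4 of 10, against 3858 of 13250 genes.

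Nr1h4 (ENSMUSG00000047638, chr10:89290096-89369447), the bile acid receptor FXR, had 52.3, 57.4, 35.2 and 49.2 FPKM in WT NCD and 98.0, 82.6, 111, 104 and 83.0 FPKM in WT HFD livers. In MlklAdi-KO mice it had 56.0, 45.0, 63.2 and 63.9 FPKM on NCD and 95.2, 89.3, 98.3, 104 and 96.5 FPKM on HFD. The lowest HFD liver was above the highest NCD liver in either genotype. The HFD mean was 1.97 times the NCD mean in WT and 1.70 times in MlklAdi-KO mice. The log2 difference was 0.98 (SE 0.15, limma adjusted p = 0.00147) in WT, 0.83 without mouse 182, and 0.76 (SE 0.10, limma adjusted p = 0.00094) in MlklAdi-KO mice.

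Nr0b2 (ENSMUSG00000037583, chr4:133280687-133283847), the repressor SHP, had 51.9, 61.8, 44.9 and 66.5 FPKM in WT NCD and 30.2, 12.1, 9.20, 8.75 and 12.6 FPKM in WT HFD livers. The value of 30.2 FPKM was that of mouse 154, and the other 4 WT HFD livers lay close together. The NCD mean was 3.87 times the HFD mean in WT (56.3 ± 9.71 against 14.6 ± 8.89 FPKM), a log2 difference of -2.01 (SE 0.31, limma adjusted p = 0.00186).

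In MlklAdi-KO mice Nr0b2 had 30.2, 69.1, 46.0 and 43.8 FPKM on NCD and 41.4, 24.7, 15.0, 9.03 and 26.7 FPKM on HFD. MlklAdi-KO HFD mouse 151, at 41.4 FPKM, was above NCD mouse 166, at 30.2 FPKM, so the groups overlapped. The log2 difference was -1.09 (SE 0.39, limma adjusted p = 0.0719) and passed the threshold in a fit over all 4 groups and without mouse 151, where it was -1.33 (limma adjusted p = 0.0276).

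Slc10a1 (chr12:80999957-81015479), the sodium-dependent uptake carrier NTCP, had 364, 364, 119 and 346 FPKM in WT NCD, 355, 406, 360 and 314 FPKM in MlklAdi-KO NCD, 344, 336, 409, 412 and 416 FPKM in WT HFD and 426, 347, 409, 496 and 480 FPKM in MlklAdi-KO HFD livers. Diets overlapped in both genotypes. The diet difference was 0.49 (SE 0.31, limma adjusted p = 0.289) in WT, 0.09 without mouse 182, and 0.26 (SE 0.12, limma adjusted p = 0.136) in MlklAdi-KO mice. Without MlklAdi-KO HFD mouse 152 it was 0.34 and passed in MlklAdi-KO mice (limma adjusted p = 0.0415).

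Slco1a1 (chr6:141853008-141892688), the organic anion carrier OATP1A1, had 126, 136, 1.47 and 117 FPKM in WT NCD, 108, 95.3, 160 and 109 FPKM in MlklAdi-KO NCD, 101, 97.6, 62.9, 107 and 64.5 FPKM in WT HFD and 167, 82.8, 121, 148 and 141 FPKM in MlklAdi-KO HFD livers. Reads that fit related Slco1a genes could be shared between them, and their treatment is not given in the sources used here. The WT diet difference was 0.85 (SE 1.09, limma adjusted p = 0.615) with mouse 182 and -0.57 (SE 0.19, limma adjusted p = 0.0531) without it. In MlklAdi-KO mice it was 0.15 (SE 0.21, limma adjusted p = 0.653).

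Abcb11 (ENSMUSG00000027048, chr2:69068626-69172960), the canalicular export pump BSEP, had 191, 212, 158 and 205 FPKM in WT NCD and 82.2, 90.4, 86.0, 73.1 and 94.6 FPKM in WT HFD livers. In MlklAdi-KO mice it had 216, 274, 202 and 167 FPKM on NCD and 97.8, 81.8, 91.3, 88.7 and 95.8 FPKM on HFD. Every HFD liver lay below every NCD liver in both genotypes. The NCD mean was 2.25 times the HFD mean in WT and 2.36 times in MlklAdi-KO mice. The log2 difference was -1.15 (SE 0.10, limma adjusted p = 0.000102) in WT, -1.24 without mouse 182, and -1.21 (SE 0.13, limma adjusted p = 0.000265) in MlklAdi-KO mice.

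**Figure D3:**
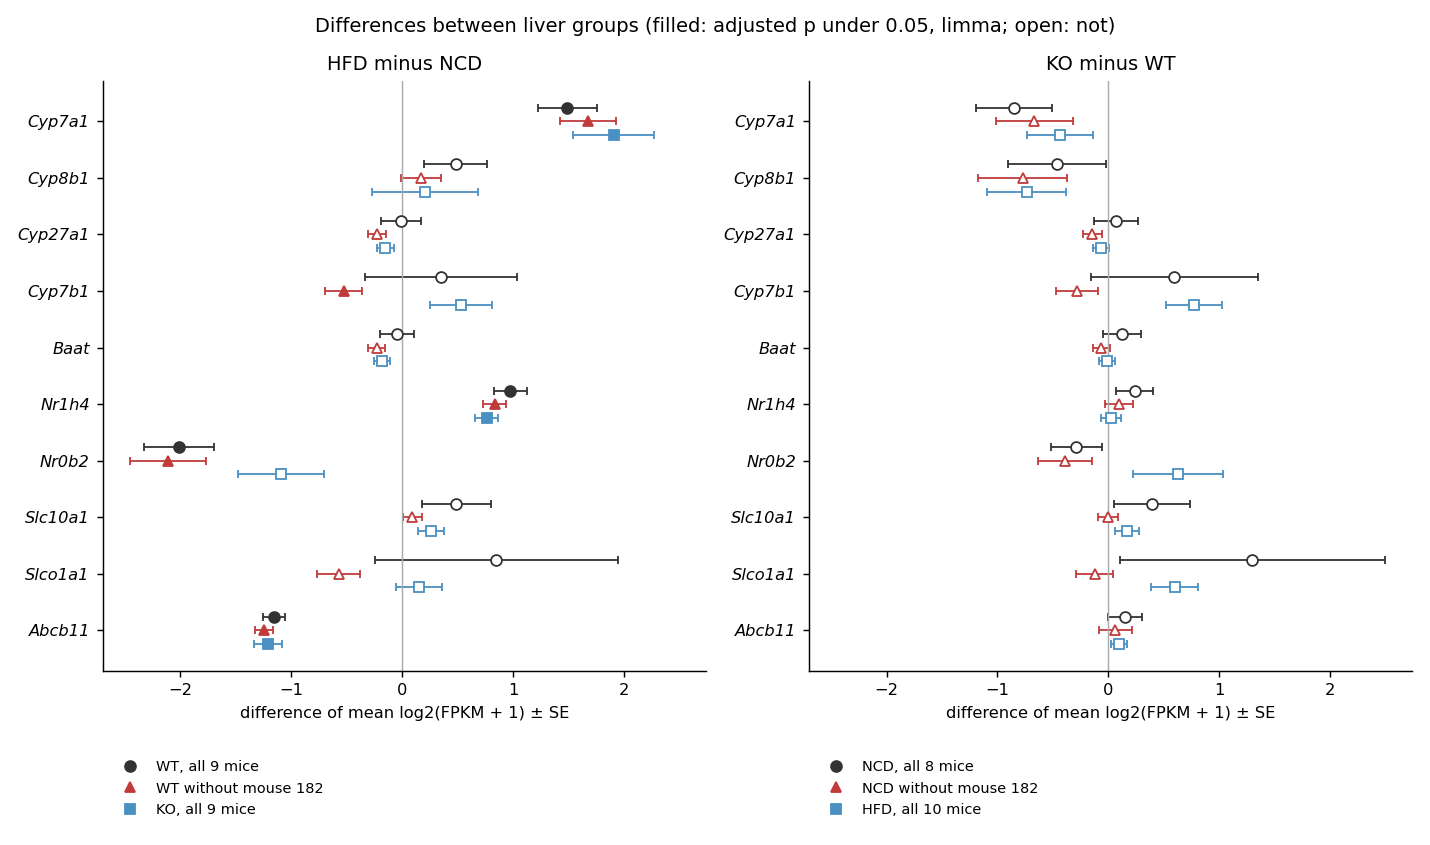
Difference of mean log2(FPKM + 1) with its SE for the 10 genes, HFD minus NCD on the left and MlklAdi-KO (KO) minus WT on the right. Filled symbols passed an adjusted p of 0.05. Cyp7a1, Nr1h4 and Abcb11 are filled in both genotypes on the left, and no symbol is filled on the right. When mouse 182 is left out, HFD minus NCD in WT changes sign for Cyp7b1 and Slco1a1. KO minus WT on NCD then changes sign for Cyp7b1, Cyp27a1, Slc10a1, Baat and Slco1a1.

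Ratios within 1 liver do not depend on how libraries were scaled and are given as a description. The ratio of export pump to uptake carrier, Abcb11 over Slc10a1, had a median of 0.586 in WT NCD and 0.585 in MlklAdi-KO NCD livers. On HFD the median was 0.228 in WT and 0.223 in MlklAdi-KO livers. All 8 NCD livers (0.525 to 1.33) lay above all 10 HFD livers (0.177 to 0.269), and the value of 1.33 was that of mouse 182. The ratio of Cyp7a1 (classical pathway) to Cyp7b1 (alternative pathway) was 0.133 to 0.253 in 3 WT NCD livers and 3.94 in mouse 182. It was 0.0759 to 0.249 in MlklAdi-KO NCD, 0.587 to 1.21 in WT HFD and 0.123 to 0.686 in MlklAdi-KO HFD livers. The ratio of Cyp8b1 to Cyp7a1 had medians of 11 and 16.0 on NCD and 5.85 and 3.43 on HFD in WT and MlklAdi-KO livers.

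**Figure D4:**
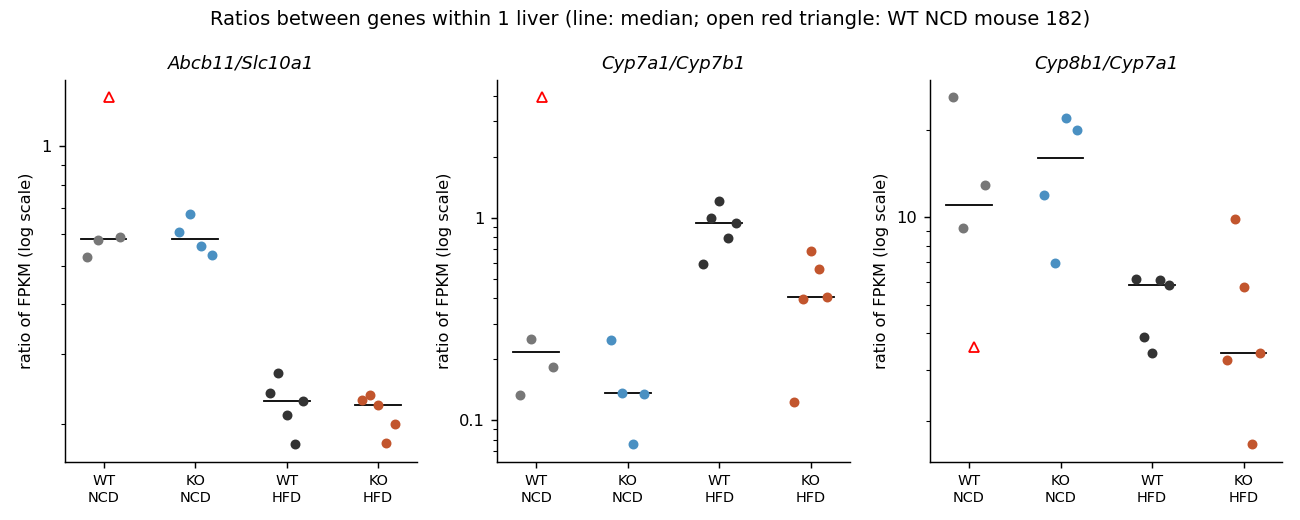
Ratios of FPKM within each of the 18 livers on log axes, with the group median as a line and mouse 182 as an open red triangle. Abcb11 over Slc10a1 separates the diets (medians 0.586 and 0.585 on NCD, 0.228 and 0.223 on HFD), and the HFD livers of the 2 genotypes overlap in all 3 ratios.

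Further genes of the pathway were read from 4 lists with 58 genes. On HFD, 9 of 49 tested rose and 10 fell in WT (38.8%), and 15 of 50 rose and 6 fell in MlklAdi-KO livers (42.0%), beside 25.3% and 22.2% of all genes. Without mouse 182, 11 of 49 rose and 11 fell in WT (44.9%), beside 28.5% of all genes. Acnat2 then missed the threshold, and Abcb1a, Slc27a2 and Sult2a8 as higher and Acox2 as lower were added. With all mice, 8 rose and 4 fell in both genotypes. The 8 were Akr1d1, Cyp46a1, Nr1i3, Ppara, S1pr2, Scp2, Slc10a5 and Slco2b1, and the 4 were Abcd3, Cyp2b10, Cyp3a11 and Ppargc1a.

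Among 17 further synthesis enzymes, 15 were tested. In WT, 4 rose and 1 fell, with a list median log2 difference of 0.19 beside -0.00104 for all genes. In MlklAdi-KO livers, 5 rose and 1 fell, with a median of 0.05 beside 0.00261 for all genes. Cyp46a1, a cholesterol 24-hydroxylase at a low level in liver, rose from a mean of 1.40 to 5.76 FPKM in WT (log2 difference 1.55, limma adjusted p = 0.00176) and from 1.57 to 3.78 FPKM in MlklAdi-KO livers (0.88, limma adjusted p = 0.00436). Akr1d1, the 5-beta-reductase of bile acid synthesis, rose by 0.39 in WT and 0.64 in MlklAdi-KO livers on the log2 scale. Scp2, which cleaves the side chain in peroxisomes, rose by 0.41 and 0.36. The peroxisomal importer Abcd3 fell by 0.50 and 0.62. Acnat2, a peroxisomal acyltransferase, had a difference of 0.77 in WT (limma adjusted p = 0.0326) and of 0.68 without mouse 182 (limma adjusted p = 0.0651).

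Among 16 further transporters, 2 rose and 3 fell of 14 tested in WT (median 0.05), and 3 rose and 2 fell of 15 tested in MlklAdi-KO livers (median -0.11). The uptake carrier Slco2b1 rose by 0.63 on the log2 scale in both genotypes. Abcg8, part of the biliary sterol exporter, fell in WT by 0.50 (limma adjusted p = 0.00607) and had a difference of -0.33 in MlklAdi-KO livers (limma adjusted p = 0.121). Slc51b, a subunit of the basolateral bile acid exporter, fell by 0.85 in MlklAdi-KO livers, from a mean of 1.35 to 0.203 FPKM. Abcc4, another basolateral exporter, fell by 0.64 in MlklAdi-KO livers. Its diet difference in MlklAdi-KO minus that in WT was 0.29 (SE 0.48, limma adjusted p = 0.988). None of 50 further pathway genes tested passed for such a difference, so a call in 1 genotype alone does not show that the genotypes differ.

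Among 18 further regulators, 3 rose and 4 fell of 15 tested in WT (median 0.03), and 6 rose and 1 fell of 15 tested in MlklAdi-KO livers (median 0.21). The receptor CAR, Nr1i3, rose from a mean of 8.17 to 22.4 FPKM in WT and from 9.06 to 18.6 FPKM in MlklAdi-KO livers. Ppara, the fatty acid receptor, rose by 0.68 and 0.89 on the log2 scale, and Prox1 rose by 0.95 in MlklAdi-KO livers. The coactivator Ppargc1a fell by 1.09 and 1.0. Klb, the co-receptor for the ileal hormone that restrains Cyp7a1, fell by 0.46 in WT. Its difference in MlklAdi-KO livers was -0.41 (limma adjusted p = 0.108). In the list of bile acid sulfation and hydroxylation, 5 genes were tested. The xenobiotic hydroxylases Cyp2b10 and Cyp3a11 fell in both genotypes (Cyp2b10 by 1.20 and 1.40, Cyp3a11 by 1.10 and 1.10). Sult2a8 rose in MlklAdi-KO livers, and without mouse 182 it also rose in WT.

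Other measures were read with diet in the same livers. The counts in this and the next paragraph stand beside 25.3% of all genes called in WT and 22.2% in MlklAdi-KO livers. Without mouse 182 it was 28.5% in WT. The clock repressor Nr1d1 was 44.0 to 79.9 FPKM in the 8 NCD livers and 9.27 to 15.8 FPKM in the 10 HFD livers, and Per2 was 2.18 to 6.32 FPKM against 13.6 to 22.9 FPKM. Of 10 clock genes in a list with the Per genes, Dbp and Nr1d1, 6 rose and 1 fell in each genotype. On NCD the summed level of this list ranged from 113 to 202 FPKM in WT and 118 to 182 FPKM in MlklAdi-KO livers. On HFD it ranged from 162 to 194 FPKM in WT and 177 to 233 FPKM in MlklAdi-KO livers. Of 4 genes tested from another clock list (Arntl, Clock, Nfil3 and Cry1), 1 rose in each genotype, while 3 fell in WT and 2 in MlklAdi-KO livers. The time of collection is not given in the sources used here. Of 9 fasting response genes, 4 fell and 2 rose in WT, and 5 fell and 1 rose in MlklAdi-KO livers. Of 8 feeding response genes, 3 rose and 5 fell in WT, and 1 rose and 3 fell in MlklAdi-KO livers. The part of these genes in the diet results of Cyp7a1, Nr0b2, Nr1h4 and Abcb11 was not tested.

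The summed level of 9 hepatocyte markers was 55733 to 66774 FPKM on NCD and 40401 to 53397 FPKM on HFD, without overlap between diets, and no marker of the list was at 0. Most of this sum is Alb, and 4 of 9 markers were lower on HFD in each genotype, while Apob was higher in WT (452 against 537 FPKM in mean, limma adjusted p = 0.0427). Without mouse 182, 6 of 9 were lower in WT and Apob missed the threshold (limma adjusted p = 0.0584). In bulk liver, fewer hepatocytes and less RNA of a gene per hepatocyte cannot be told apart. Kupffer cell markers summed to 73.8 to 107 FPKM on NCD and 60.5 to 212 FPKM on HFD, and 2 of 7 rose in WT (Vsig4 and Cd5l, and Vsig4 alone without mouse 182). Of 7 stellate cell markers and of 6 sinusoidal endothelium markers none passed in a diet comparison by limma with all mice, and without mouse 182 Reln and Hand2 were higher and Clec4g lower in WT. Adipocyte markers summed to 1.90 to 16.8 FPKM on NCD and 4.13 to 92.3 FPKM on HFD. Of these, Cfd rose in both genotypes and Cidea in WT, and the defining marker Adipoq was at most 0.25 FPKM outside mouse 155, where it was 2.70 FPKM. With the libraries of mice 155, 166 and 182 all left out, the same 4 members in WT and the same 3 in MlklAdi-KO livers passed, against 26.6% and 17.3% of all genes. The part of these cell types in the results was otherwise not tested.

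The effect of adipocyte Mlkl deletion on the liver was asked on each diet. On NCD, 0 of 10 members passed, and 1 of 13193 genes did (0.00758%). At an unadjusted p under 0.05 there were 574 genes and 1 member, Cyp7a1, and neither edgeR nor DESeq2 called a member. No member was without overlap, against 2.80% of all genes. Cyp7a1 was lower in MlklAdi-KO livers in mean (12.3 ± 4.76 against 23.8 ± 10.3 FPKM, SD, n = 4 each), and 3 of 4 MlklAdi-KO livers were below every WT liver. Its log2 difference was -0.85 (SE 0.34, limma adjusted p = 0.996), and the two-sided exact permutation p was 0.114, where 4 against 4 mice can give 0.0286 at the smallest. Slco1a1 had the largest difference among the 10, 1.30 with an SE of 1.20, and it was -0.12 (SE 0.16) without mouse 182. Leaving out mouse 182 also turned the sign for Cyp7b1 (0.59 to -0.28), Cyp27a1 (0.07 to -0.15), Slc10a1 (0.39 to -0.0041) and Baat (0.12 to -0.0624). Without that mouse 0 members and 0.0536% of all genes passed, and Cyp8b1 was the 1 member without overlap (6.66% of all genes), with all 4 MlklAdi-KO livers below the 3 WT livers and a log2 difference of -0.77 (SE 0.40, limma adjusted p = 0.90).

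On HFD, 0 of 10 members passed, and 26 of 13215 genes did (0.197%), 17 higher (0.129%) and 9 lower (0.0681%) in MlklAdi-KO livers. On the TPM scale 12 were higher and 15 lower, and there too no member passed. At an unadjusted p under 0.05 there were 1664 genes and 2 members. DESeq2 and edgeR called no member. No member was without overlap, against 2.62% of all genes.

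Cyp7b1 and Slco1a1 were the members with the smallest unadjusted p. Cyp7b1 had a mean of 132 ± 51.3 FPKM in MlklAdi-KO and 73.4 ± 14.8 FPKM in WT HFD livers (SD, n = 5 each), and 3 of 5 MlklAdi-KO livers, those of mice 151, 156 and 157, were above every WT liver. The log2 difference was 0.77 (SE 0.25, limma unadjusted p = 0.0111, adjusted p = 0.267), and the two-sided exact permutation p was 0.0397, before correction over the 10 members. Slco1a1 had a mean of 132 ± 32.1 against 86.7 ± 21.3 FPKM, and 4 of 5 MlklAdi-KO livers were above every WT liver. Its difference was 0.60 (SE 0.21, limma unadjusted p = 0.0170, adjusted p = 0.295), with an exact permutation p of 0.0476. The summed level of the 13 male-biased liver genes was 4125 to 7996 FPKM in MlklAdi-KO HFD and 4007 to 5854 FPKM in WT HFD livers, with a list median difference of 0.50 and none called by limma. DESeq2 called Cyp4a12a (adjusted p = 0.00403) and Cyp2u1 higher in MlklAdi-KO livers, and edgeR called Cyp2u1 (adjusted p = 0.0470). Its part in the values of Cyp7b1 and Slco1a1 was not tested.

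The other members differed less relative to their spread on HFD. Cyp8b1 had a mean of 213 ± 111 FPKM in MlklAdi-KO and 320 ± 73.2 FPKM in WT livers, a log2 difference of -0.74 (SE 0.36, limma adjusted p = 0.438), and 3 of 5 MlklAdi-KO livers were below every WT liver. Cyp7a1 differed by -0.43 (SE 0.30) and Nr0b2 by 0.63 (SE 0.41). Slc10a1 differed by 0.17 (SE 0.11) and Abcb11 by 0.10 (SE 0.07), while Nr1h4 (0.02), Baat (-0.01) and Cyp27a1 (-0.07) had standard errors of 0.07 to 0.09. Of the 58 further pathway genes, 48 were tested on HFD and 50 on NCD, and none passed in either genotype comparison by limma, edgeR or DESeq2. Of the fasting response genes, the secreted growth factor binding protein Igfbp1 fell, from 30.3 to 50.4 FPKM in WT to 6.01 to 15.1 FPKM in MlklAdi-KO HFD livers (log2 difference -1.49, limma adjusted p = 0.0401). DESeq2 also called Angptl4 of this list lower in MlklAdi-KO HFD livers (DESeq2 adjusted p = 0.00115). It called the clock genes Bhlhe41, Nr1d1 and Dbp higher there (DESeq2 adjusted p = 5.07e-05, 0.00575 and 0.0234). Neither limma nor edgeR called Angptl4 or these clock genes.

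Whether diet acted differently in the 2 genotypes was tested as an interaction over all 18 livers. No member passed, and 2 of 13248 genes did (0.0151%), with 811 genes and 0 members at an unadjusted p under 0.05. DESeq2 and edgeR called no member. The interaction of Nr0b2 was 0.92 (SE 0.54, limma adjusted p = 0.911), so the loss of its call in MlklAdi-KO mice does not show that the genotypes differ. For Cyp7a1 it was 0.42 (SE 0.49), for Nr1h4 -0.21 (SE 0.19) and for Abcb11 -0.05 (SE 0.17). Without mouse 182, 0 members and 0.0227% of all genes passed, and the interaction of Cyp7b1 was 1.06 (SE 0.36, limma unadjusted p = 0.0103, adjusted p = 0.465) and that of Slco1a1 0.72 (SE 0.31, limma adjusted p = 0.603). With all mice, Cyp7b1 had 0.18 (SE 0.78) and Slco1a1 -0.70 (SE 1.18). Leaving out mouse 182 also turned the sign for Cyp8b1 (-0.27 to 0.0365), Cyp27a1 (-0.14 to 0.0769), Slc10a1 (-0.23 to 0.17), Abcb11 (-0.05 to 0.0346) and Baat (-0.13 to 0.0481).

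Members were also compared across the 18 livers after the mean of each group was subtracted from log2(FPKM + 1). These correlations are a description over livers that share group sizes and library scaling. Cyp7b1 and Slco1a1 varied together (Pearson r = 0.96, and 0.85 over 17 livers without mouse 182), and Cyp7a1 and Nr0b2 varied in opposite directions (r = -0.66 with and without it). Slc10a1 and Slco1a1 had r = 0.91 with mouse 182 and 0.15 without it. Abcb11 had r = -0.17 with Nr1h4, and -0.66 without mouse 182.

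Among 11356 genes at a mean of 1 FPKM or more, the gene most like Nr1h4 was Ctsh (r = 0.93), that most like Nr0b2 was Zfp329 (r = 0.81) and that most like Abcb11 was Eif4e (r = 0.89), and each stayed the nearest without mouse 182. For the other 7 members the nearest gene changed when mouse 182 was left out. Slco1a1 went from Mup3 (r = 0.99) to Ugt2b1 (r = 0.95), Cyp7b1 from Ces3a (r = 0.98) to Inhca (r = 0.94), and Slc10a1 from Cmah (r = 0.97) to Stard7 (r = 0.92). Cyp7a1 went from Thumpd1 (r = 0.75) to Gid8 (r = 0.92), Cyp8b1 from Paqr7 (r = 0.83) to Mxra7 (r = 0.89), Cyp27a1 from Cnpy3 (r = 0.94) to Mtch2 (r = 0.87) and Baat from Fgf1 (r = 0.96) to Creb3l3 (r = 0.89).

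In visWAT of the same mice, which gives the background of the measurement, Cyp27a1 was the member with a level above a few FPKM, at 18.3 to 44.3 FPKM. Nr1h4 was 0.253 to 1.55 FPKM and Cyp7b1 0.201 to 1.25 FPKM. Cyp7a1 was at most 0.106 FPKM and listed at 0 in 12 of 18 fat libraries, and Nr0b2 and Slco1a1 were each listed at 0 in 13. All 10 members were highest in the fat library of MlklAdi-KO HFD mouse 156, where Slc10a1 was 5.36 FPKM against at most 0.871 FPKM in the other 17. The same library held Alb at 460 FPKM, against 0.344 to 53.2 FPKM in the others, and Apoa1 at 131 FPKM against at most 23.5 FPKM.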

How the data were processed

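RNA-seq libraries of liver and visWAT from 18 mice, 1 library per mouse and tissue, were analysed, and groups were taken from the sample labels. Libraries were made from polyadenylated RNA, and the authors used fastp for trimming, HISAT2 for mapping to mm39 and featureCounts 1.5.0-p3 for counting. Strand setting, annotation release and how ambiguous reads were handled are not given in the sources used here. The authors deposited FPKM for 56748 genes and, in tables of single comparisons, counts of reads for part of the genes. Fold changes and p-values in these tables and their pathway tables are the authors' own and were not used, nor were 72 further columns of values per sample. The size behind each library's FPKM was found from genes that also had counts, and 100% of values then came out as whole reads (tolerance 0.01). In liver this size lay between 0.737 and 0.812 times the counted reads, so the FPKM contain a scaling between libraries. Replicate livers differed by more than sampling noise (chi-square per gene at least 12.1). Each replicate is 1 mouse. Depth limits short and weakly expressed genes most, and counting error alone is small for the members, which had at least 158 reads in each liver.

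Liver groups were compared with limma 3.58.1 in R 4.3.3 on log2(FPKM + 1), with a trend in the empirical Bayes step and 2 groups per fit, for genes with a mean of at least 0.5 FPKM. Benjamini-Hochberg adjustment ran over all genes tested, with a threshold of 0.05. The interaction used 18 livers. Single genes were also compared with two-sided exact permutation tests (scipy 1.17.1). The other settings tried were 0.1 as pseudocount, no filter, a filter at 1 FPKM, the TPM scale, 1 fit over 4 groups, leaving out each mouse, and edgeR 4.0.16 and DESeq2 1.42.0 on the recovered reads. Fits without mouse 182 under other tools and without mice 155, 166 and 182 were added after the values were seen. The tests were checked on simulated data. The members and gene lists were chosen with earlier results of these data known. The genes named are all 10 members in every comparison, up to 6 further pathway genes per direction past the threshold by size of change, and for each member the gene with the highest correlation. Genes named beside these were chosen after their values were seen. Upstream windows were read from GRCm39 with GENCODE M39 for 9 members, and that of 1 member is not reported here. Gene coordinates are those of the deposited table.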

Additional observations from a re-analysis of the deposited data

Results flagged for a closer look

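Of 40 groups of values (10 genes in 4 liver groups), 4 held a mouse whose gap to the nearest other mouse was a larger share of the group's range than Dixon's 95% limit allows. Chance flags about 1 in 20 groups. In WT NCD livers, mouse 182 was lowest for Slco1a1 at 1.47 FPKM, with the next at 117 FPKM, and for Slc10a1 at 119 FPKM, with the next at 346 FPKM. In WT HFD livers, mouse 154 was highest for Nr0b2 at 30.2 FPKM, with the next at 12.6 FPKM. In MlklAdi-KO HFD livers, mouse 152 was lowest for Baat at 145 FPKM, with the next at 169 FPKM. No explanation of these values was tested.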

How the results depend on the processing

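No paired analysis was possible because the liver groups compared are different mice that share no number, and mouse numbers are shared only between liver and fat, between which no test was run. Cyp7a1, Nr1h4, Nr0b2 and Abcb11 in WT and Cyp7a1, Nr1h4 and Abcb11 in MlklAdi-KO livers kept their direction and passed with diet under every alternative run, and no member passed under any alternative of the genotype comparisons or the interaction. The number of mice limits the smaller differences. Members called in WT with diet were 4 (25.3% of all genes), against 8 by DESeq2 (31.7% of all genes) and 8 by edgeR (30.4% of all genes) without mouse 182. Without that mouse limma called 5 (28.5% of all genes), and 4 on the TPM scale (3858 of 13250 genes). Without mice 155, 166 and 182 limma called 4 (26.6% of all genes).

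Genes called between genotypes on NCD were 1, against 19 by DESeq2, 3 without a filter, 3 in 1 fit over 4 groups, 7 without mice 155, 166 and 182, and 1 to 7 when leaving out each mouse, with 7 without mouse 182. Without mouse 182 they were also 5 by edgeR, 53 by DESeq2 and 7 on the TPM scale. On HFD they were 26, against 259 by DESeq2, 7 without a filter and 9 to 37 when leaving out each mouse, with 9 without mouse 151 or 153, 11 without mouse 161, 12 without mouse 154 or 164, and 13 without mouse 162. For the interaction they were 2, against 58 by DESeq2, 1 by edgeR, 4 with the filter at 1 FPKM and 2 to 5 when leaving out each mouse, with 5 without mouse 165. Without mouse 182 the interaction called 69 by DESeq2 and 1 by edgeR. The cause of these changes was not tested.

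Log2 differences of members turned sign in the cases that follow, and only Cyp7b1 (limma, edgeR and DESeq2) and Slco1a1 (edgeR and DESeq2) in WT with diet, each without mouse 182, then passed the threshold. The sign turned in WT with diet to -0.15 for Cyp7b1 and -0.13 for Slco1a1 by DESeq2, -0.53 for Cyp7b1 and -0.54 for Slco1a1 by DESeq2 without mouse 182, -0.15 for Cyp7b1 and -0.13 for Slco1a1 by edgeR, -0.52 for Cyp7b1 and -0.54 for Slco1a1 by edgeR without mouse 182, -0.49 for Cyp7b1 and -0.62 for Slco1a1 without mice 155, 166 and 182, 0.015 for Cyp27a1 on the TPM scale, and -0.46 for Cyp7b1 and -0.50 for Slco1a1 on the TPM scale without mouse 182. Leaving out each mouse gave -0.53 to 0.73 for Cyp7b1, -0.23 to 0.10 for Cyp27a1, -0.23 to 0.0546 for Baat and -0.57 to 1.36 for Slco1a1. The sign turned in MlklAdi-KO livers with diet when leaving out each mouse, which gave -0.21 to 0.51 for Cyp8b1. The sign turned between genotypes on NCD to -0.26 for Cyp7b1, -0.14 for Cyp27a1, -0.0504 for Baat and -0.0868 for Slco1a1 by DESeq2 without mouse 182, -0.26 for Cyp7b1, -0.14 for Cyp27a1, -0.0517 for Baat and -0.0876 for Slco1a1 by edgeR without mouse 182, -0.24 for Cyp7b1, -0.10 for Cyp27a1, -0.00119 for Slc10a1, -0.0539 for Baat and -0.0885 for Slco1a1 without mice 155, 166 and 182, and -0.26 for Cyp7b1, -0.12 for Cyp27a1, -0.0409 for Baat and -0.10 for Slco1a1 on the TPM scale without mouse 182. Leaving out each mouse gave -0.28 to 0.98 for Cyp7b1, -0.15 to 0.18 for Cyp27a1, -0.0041 to 0.53 for Slc10a1, -0.0624 to 0.22 for Baat and -0.12 to 1.81 for Slco1a1. The sign turned between genotypes on HFD to -0.0259 for Nr1h4 without mice 155, 166 and 182, and -0.0442 for Nr1h4 on the TPM scale. Leaving out each mouse gave -0.0259 to 0.0797 for Nr1h4 and -0.0462 to 0.0358 for Baat. The sign turned in the interaction to 0.28 for Slco1a1 by DESeq2, 0.0355 for Cyp8b1, 0.067 for Cyp27a1, 0.16 for Slc10a1, 0.0349 for Baat and 0.69 for Slco1a1 by DESeq2 without mouse 182, 0.28 for Slco1a1 by edgeR, 0.0329 for Cyp8b1, 0.0619 for Cyp27a1, 0.15 for Slc10a1, 0.0294 for Baat and 0.69 for Slco1a1 by edgeR without mouse 182, 0.12 for Cyp8b1, 0.12 for Slc10a1, 0.0683 for Abcb11, 0.00935 for Baat and 0.74 for Slco1a1 without mice 155, 166 and 182, and 0.080 for Slc10a1 and 0.63 for Slco1a1 on the TPM scale without mouse 182. Leaving out each mouse gave -0.20 to 1.06 for Cyp7b1, -0.69 to 0.0365 for Cyp8b1, -0.25 to 0.0769 for Cyp27a1, -0.37 to 0.17 for Slc10a1, -0.17 to 0.0713 for Abcb11, -0.24 to 0.0481 for Baat and -1.21 to 0.72 for Slco1a1.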

Other observations

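Gene groups outside the pathway were also read with diet. Of all genes, 25.3% were called in WT, 28.5% in WT without mouse 182 and 22.2% in MlklAdi-KO livers. All 5 acute phase genes tested rose in WT HFD livers (Saa1, Saa2, Lcn2, Orm2 and Hp), and 3 of 5 rose in MlklAdi-KO livers (Saa1, Lcn2 and Hp). Saa1, an inflammatory plasma protein, went from 6.66 ± 3.61 to 53.8 ± 12.7 FPKM in WT (SD, n = 4 and 5) and from 5.82 ± 2.34 to 44.7 ± 49.6 FPKM in MlklAdi-KO livers. The MlklAdi-KO HFD livers spanned 14.1 to 132.5 FPKM. This list was added after the values were seen.

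Of 7 female-biased liver genes tested in WT, 2 rose on HFD (Acot3 and Fmo2), and without mouse 182, whose liver held Cyp2b9 at 112 FPKM, 4 of 6 rose (Acot3, Fmo2, Cyp2a4 and Cyp2b9). Of 5 tested in MlklAdi-KO livers 3 rose (Cyp2b9, Acot3 and Fmo2). Of 13 male-biased genes, 1 rose and 2 fell in WT, 3 rose and 6 fell in WT without mouse 182, and 4 rose and 3 fell in MlklAdi-KO livers, with Cyp4a12a and Cyp4a12b among those that fell in both. No gene of these 3 lists passed in a genotype comparison by limma, but on HFD DESeq2 called Cyp4a12a and Cyp2u1 and edgeR called Cyp2u1, all higher in MlklAdi-KO livers. Among lists for other cells, the bile duct gene Sox9 fell in WT, Cd9 of the recruited macrophage list fell in both genotypes, and of the blood cell genes Alas2 rose and Hbb-bt fell in both.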
